A study of Homo sapiens with 3 samples.

Results

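The 9 genes described here encode the membrane-type and secreted metalloproteases MMP14, MMP2, ADAM10, ADAM17, ADAM9 and ADAMTS1 and the tissue inhibitors of metalloproteases TIMP1, TIMP2 and TIMP3. They were taken by symbol from the 57773 genes of the deposited tables, where each symbol had 1 row. The study sequenced ribosome-depleted RNA of MDA-MB-231 tumorspheres, with 1 library for each of 3 groups. MDA-MB-231, an established cell line, came from a human breast cancer without hormone receptors or HER2 amplification, and its tumorspheres are clusters grown in plates to which cells cannot attach. The medium of all groups held epidermal growth factor, insulin and B27 supplement. The groups, all labelled 24 h, are untreated wild-type spheres (control), wild-type spheres transfected with a LINC00273 clone in pcDNA under a CMV promoter (LINC00273 overexpression), and wild-type spheres given M2, an agent named by code in the labels, at 10 µM. The series title concerns a G-quadruplex of the long non-coding RNA LINC00273 and its binding of microRNAs in metastasis, stemness and drug resistance. Mock-transfected and vehicle-treated spheres were not analysed here, so that an effect of transfection or of the solvent cannot be told apart from that of LINC00273 or M2.

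Metalloproteases of this group cut proteins at the cell surface and in the extracellular matrix, and all are made as inactive precursors. MMP14 (MT1-MMP) is anchored in the plasma membrane, degrades fibrillar collagen and activates MMP2. TIMP2 takes part in that activation, because it bridges MMP14 and the MMP2 precursor, and at high levels it inhibits both. ADAM10 and ADAM17 are sheddases, which release the extracellular parts of Notch receptors, cadherins, cytokines and growth factor precursors. In breast cancer cells these enzymes are studied for their part in invasion.

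LINC00273 itself had 0 reads in each of the 3 libraries, and whether reads of this locus, or of the plasmid, could be counted is not known. The library labelled as LINC00273 overexpression is therefore called the LINC00273-labelled library, and every direction given for it rests on that label. The libraries held 8620534, 5123199 and 4695535 reads on genes, of which RN7SL1 and RN7SK took 54.7%, 42.8% and 39.3%. Of the 6 genes listed as markers of the cell line, VIM had 4182 to 11763 reads and CAV1 had 725, 208 and 288. The other listed markers were low: CD44 had 86, 44 and 29 reads, and EGFR, known to be abundant in this line, had 95, 8 and 61. The keratins KRT8 and KRT18 had at most 6 reads in any library. Markers of blood cells, 7 of 7 of them listed in the tables, summed to 816, 6.35 and 1409 reads per 1000000 TMM-scaled reads (scaled RPM) in the control, the LINC00273-labelled library and the M2 library, led by HBB with 4860, 9 and 5417 reads, and their part in the ratios of the proteases and inhibitors was not tested. The luminal (6 of 6 genes in the tables), fibroblast (6 of 6) and endothelial (2 of 3) lists summed to at most 14.3 scaled RPM, and PTPRC, the pan-leukocyte marker, had 38, 10 and 46 reads. With 1 library per group there is no replicate check and no p-value, and the ratios compare libraries, not conditions. Bulk RNA also cannot tell fewer cells of a type from less RNA per cell.

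The sequences at the starts of MMP14 and ADAM10 are shown because these enzymes had the lowest and the highest ratio to the control among the well-counted members in the M2 library. Each is the window from 250 bases before to 50 bases after the RefSeq gene start on GRCh38.p14. MMP14 is at chr14:22836335-22836634 on the plus strand and ADAM10 at chr15:58749658-58749957 on the minus strand. The gene coordinates given further below place the start of ADAM10 at 58749978. By those coordinates its whole window lies inside the gene and holds no base upstream of the start. For MMP14 they place the start at 22836557, inside the window. Which starts were used in these cells was not tested. The sequences are written 5′ to 3′ with the GC box GGGCGG in capitals.
MMP14: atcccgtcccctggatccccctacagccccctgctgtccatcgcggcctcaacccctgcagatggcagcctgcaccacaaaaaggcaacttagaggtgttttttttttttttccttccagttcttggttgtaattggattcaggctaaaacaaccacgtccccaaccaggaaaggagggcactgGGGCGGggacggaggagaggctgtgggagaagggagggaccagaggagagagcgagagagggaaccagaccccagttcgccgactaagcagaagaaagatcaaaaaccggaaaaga
ADAM10: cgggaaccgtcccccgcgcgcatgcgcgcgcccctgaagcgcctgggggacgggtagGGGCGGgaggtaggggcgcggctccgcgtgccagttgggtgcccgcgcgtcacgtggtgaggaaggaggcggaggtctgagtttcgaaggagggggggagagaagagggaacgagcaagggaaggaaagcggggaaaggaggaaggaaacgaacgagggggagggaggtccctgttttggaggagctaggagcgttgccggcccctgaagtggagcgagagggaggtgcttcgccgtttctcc
The motif GGGCGG was searched on both strands and occurred 1 time in each window, and 59.4% of 14151 windows of protein-coding genes hold it. Windows of TIMP1, TIMP3 and ADAM17 held 2, 5 and 3 copies. TATAAA was in none of these 5 windows, against 9.37% of all windows. The pattern of a G-quadruplex, 4 runs of GGG with 1 to 7 N between runs, was also searched on both strands. It began at 3 positions in the MMP14 window, 4 in that of ADAM10 and 9 in that of TIMP3, overlapping matches included. The 3 in the MMP14 window were on the strand opposite to the one shown. The windows of TIMP1 and ADAM17 held 0 matches, while 30.7% of all windows hold the pattern. GC content was 55.0% for the MMP14 window and 68.0% for that of ADAM10, against a median of 63.0% over all windows. A match is a description of these letters and not a bound site. The promoter windows of MMP2, TIMP2, ADAM9 and ADAMTS1 were not analysed here.

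Because the title concerns microRNA binding, the 3′ untranslated regions were searched for seed matches of the miR-200 family, microRNAs known to repress ZEB1 and ZEB2, which were chosen here and are not named in the labels. The mature sequences from RefSeq fall into 2 seed groups, shown with the seed (bases 2 to 8) in capitals.
hsa-miR-200a-3p: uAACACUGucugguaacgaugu
hsa-miR-141-3p: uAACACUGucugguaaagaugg
hsa-miR-200b-3p: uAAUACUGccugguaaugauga
hsa-miR-200c-3p: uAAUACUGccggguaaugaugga
hsa-miR-429: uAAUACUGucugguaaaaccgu
ADAM10 and TIMP2 were the members with a match. In the 8740-nt untranslated region of ADAM10 the letters CAGTGTT, complementary to the first seed group, occurred 2 times, and in the 2690-nt region of TIMP2 the letters CAGTATT, complementary to the second group, occurred 1 time. The matches are in capitals with 8 bases on either side, from GENCODE 29 transcripts (GRCh38): ADAM10 at chr15:58595321-58595343 and chr15:58594964-58594986, and TIMP2 at chr17:78852980-78853002, all on the minus strand.
ADAM10, first: ccacaaggCAGTGTTttcttaca
ADAM10, second: tgacatttCAGTGTTacctagaa
TIMP2: acaataaaCAGTATTatcaaaga
Of 18697 untranslated regions, 18.5% hold CAGTGTT and 16.2% hold CAGTATT. Among regions within 20% of the length of that of ADAM10 84.9% hold one or the other, and among those near the length of that of TIMP2 48.5% do. In both comparisons ADAM10 stood above the control and TIMP2 below it, and a relation of the matches to these ratios was not tested. The other 7 members held none of these letters in the transcript searched.

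Per length, TIMP2 was the most abundant member in the control and ADAM10 in both other libraries. Levels are given as scaled RPM per kb of the longest transcript. TIMP2 stood at 25.3 in the control, 10.3 in the LINC00273-labelled library and 6.90 in the M2 library. ADAM10 stood at 5.28, 13.7 and 16.5. MMP14 stood at 9.63, 6.07 and 2.34, and ADAM17 at 2.17, 3.22 and 3.83. The order per length in the control was therefore TIMP2, MMP14, ADAM10 and ADAM17, each with a counting interval apart from that of the next. In the LINC00273-labelled library it was ADAM10, TIMP2, MMP14 and ADAM17, again with separate intervals. In the M2 library it was ADAM10, TIMP2, ADAM17 and MMP14, and there the intervals of ADAM17 (2.92 to 4.94) and MMP14 (1.44 to 3.60) overlapped, as did those of MMP14 and ADAM9 (0.245 to 1.45). The other 5 members were at or below 1.19 in every library, and neighbours among them did not differ beyond their intervals. These orders rest on the longest transcript, 11431 nt for ADAM10 and 3732 nt for MMP14, and the isoforms present were not measured. Without division by length ADAM10 stood above MMP14 in the control, at 60.3 against 35.9 scaled RPM. Among 3530 protein-coding genes with at least 100 reads in 1 or more libraries, 72.9% lay below TIMP2 in the control and 33.4% in the M2 library. For ADAM10 the shares were 26.5% and 60.2%, and for MMP14 47.6% and 6.66%.

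The reads behind these levels were unevenly spread over the group. TIMP2, MMP14, ADAM10 and ADAM17 each had at least 100 reads in 1 or more libraries, and the other 5 members had at most 28 in any library. ADAM10 took 63.0% of all member reads in the LINC00273-labelled library and 74.7% in the M2 library, and TIMP2 took the most in the control, 43.8%. Summed over the 6 proteases, scaled RPM were 118, 209 and 226 in the control, the LINC00273-labelled library and the M2 library. Summed over the 3 inhibitors they were 93.1, 38.8 and 26.9. The protease sums rested on ADAM10 and the inhibitor sums on TIMP2, which held 93.7% to 99.1% of the inhibitor reads.

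**Figure D1:**
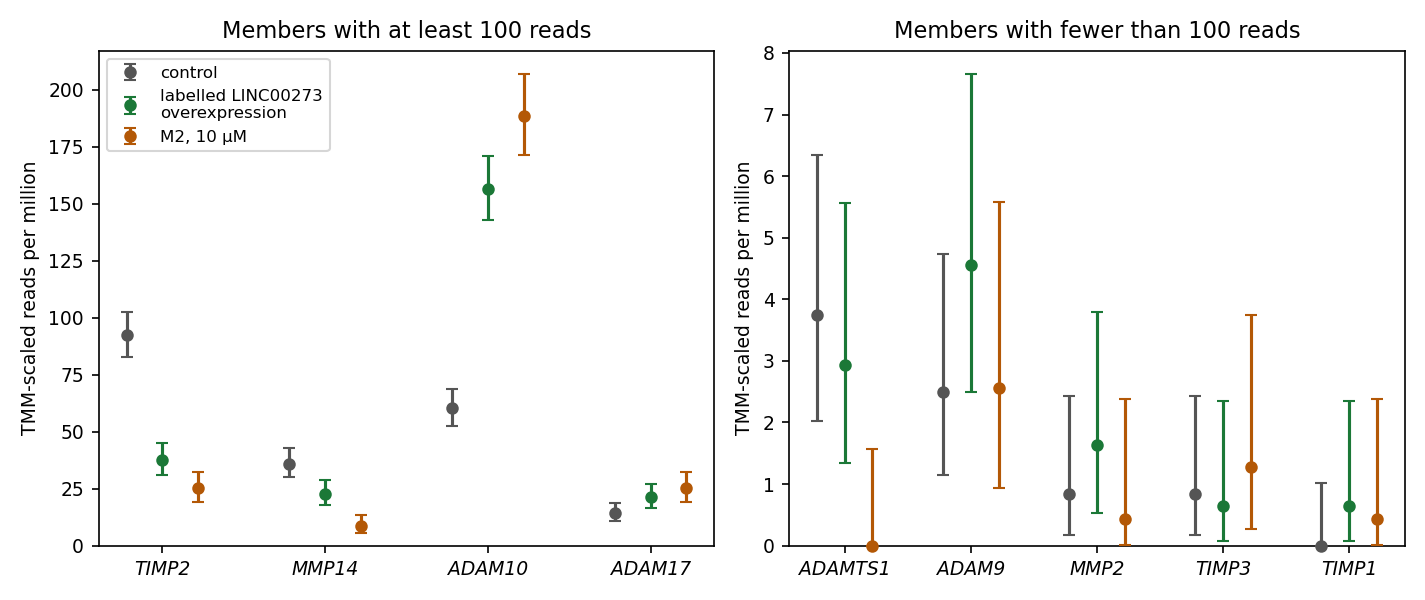
Scaled RPM (vertical axis) of each member in the 3 libraries, with points for the library values and bars for exact 95% Poisson intervals, which cover counting error only. TIMP2 and MMP14 were highest in the control and ADAM10 and ADAM17 highest in the M2 library, and the intervals of the low members overlap widely.

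TIMP2, on chromosome 17 (78852977 to 78925387, minus strand, GRCh38), encodes the inhibitor that also serves MMP2 activation. It had 665 reads in the control, 230 in the LINC00273-labelled library and 118 in the M2 library, which is 92.3, 37.5 and 25.2 scaled RPM. The control was the highest and its counting interval lay apart from the other two, which overlapped. Against the control, TIMP2 was 2.46-fold lower in the LINC00273-labelled library (log2 ratio −1.30, 95% interval −1.62 to −0.99) and 3.66-fold lower in the M2 library (−1.87, −2.30 to −1.47). The M2 library stood below the LINC00273-labelled library by a log2 ratio of −0.57 (−1.05 to −0.11). Genes within 2 percentage points of the GC content of TIMP2 (53.7%) had median log2 ratios of −0.60 and −0.47 in the 2 comparisons. Centred on genes of like GC content, TIMP2 stood at −0.71 and −1.41, within 2-fold in the first comparison and past it in the second. CEP295NL, whose exons overlap TIMP2 on the same strand, had 4, 2 and 0 reads.

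MMP14, on chromosome 14 (22836557 to 22849027, plus strand), had 259 reads in the control, 139 in the LINC00273-labelled library and 41 in the M2 library, or 35.9, 22.6 and 8.75 scaled RPM. The 3 values lay apart, with no overlap of their counting intervals. In the LINC00273-labelled library MMP14 was within 2-fold of the control (log2 ratio −0.67, −1.11 to −0.23), and genes of like GC content (58.9%) had a median of −0.61, so that the centred ratio was −0.06. In the M2 library it was 4.11-fold lower (−2.04, −2.79 to −1.36). Genes of like GC content had a median of −0.63 there, and the centred ratio was −1.41, the same as that of TIMP2. The M2 library was 2.59-fold below the LINC00273-labelled library (−1.37, −2.16 to −0.64).

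ADAM10, on chromosome 15 (58588807 to 58749978, minus strand), encodes the sheddase that starts Notch receptor cleavage and cuts N-cadherin and the amyloid precursor protein. It had 435 reads in the control, 960 in the LINC00273-labelled library and 884 in the M2 library, or 60.3, 156 and 189 scaled RPM. The control was the lowest, and the 3 counting intervals did not overlap, although the upper bound in the LINC00273-labelled library (171.0) lay close to the lower bound in the M2 library (171.5). ADAM10 was 2.59-fold higher than the control in the LINC00273-labelled library (log2 ratio 1.37, 1.14 to 1.61) and 3.13-fold higher in the M2 library (1.64, 1.41 to 1.89). Its transcripts are poor in GC (38.3%), and genes within 2 percentage points had median log2 ratios of 0.45 and 0.89. Centred on such genes ADAM10 stood at 0.93 and 0.73, both within 2-fold. Between the M2 library and the LINC00273-labelled library the log2 ratio was 0.27 (0.08 to 0.46), against a median of 0.44 for genes of like GC content.

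ADAM17, on chromosome 2 (9488486 to 9556732, minus strand), encodes the enzyme that releases tumour necrosis factor and ligands of the EGF receptor. It had 103 reads in the control, 130 in the LINC00273-labelled library and 118 in the M2 library, or 14.3, 21.2 and 25.2 scaled RPM. The intervals of the control (10.7 to 18.8) and the M2 library (19.2 to 32.5) lay apart, and both overlapped that of the LINC00273-labelled library. Its log2 ratio was 0.57 (0.02 to 1.12) in the LINC00273-labelled library and 0.82 (0.25 to 1.39) in the M2 library, within 2-fold in both. With a GC content of 38.5%, close to that of ADAM10, its centred ratios were 0.11 and −0.10. IAH1, whose exons overlap ADAM17 on the opposite strand, had 4, 2 and 0 reads.

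Of the 4 members that reached 100 reads in a compared library, 1 was at least 2-fold higher (ADAM10) and 1 at least 2-fold lower (TIMP2) in the LINC00273-labelled library, where 5.18% of 3842 genes with that many reads were higher and 6.61% lower. In the M2 library 1 was higher (ADAM10), against 17.4% of 3805 genes, and 2 were lower (TIMP2 and MMP14), against 8.88%. The median log2 ratio of the 4 was −0.05 in the first comparison and −0.53 in the second, and over all genes with that many reads it was −0.21 and −0.02. Both comparisons share the control library. After centring on GC content 0 members were past 2-fold in the first comparison, and 0 higher and 2 lower in the second. Scaling to the total count, which moved the median ratio of all genes by 0.52 and 0.26, left 0 lower and 2 higher members in the first comparison and 2 lower and 2 higher in the second. That scaling gave 823 higher and 37 lower genes in the first comparison, in place of 199 and 254, and 969 and 166 in the second, in place of 661 and 338. Scaling by the deposited size factors gave 265 higher and 187 lower genes in the first comparison, and centring on gene length gave 225 and 141 in the first and 416 and 334 in the second. Centring on GC content gave 136 and 131 in the first and 174 and 240 in the second.

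**Figure D2:**
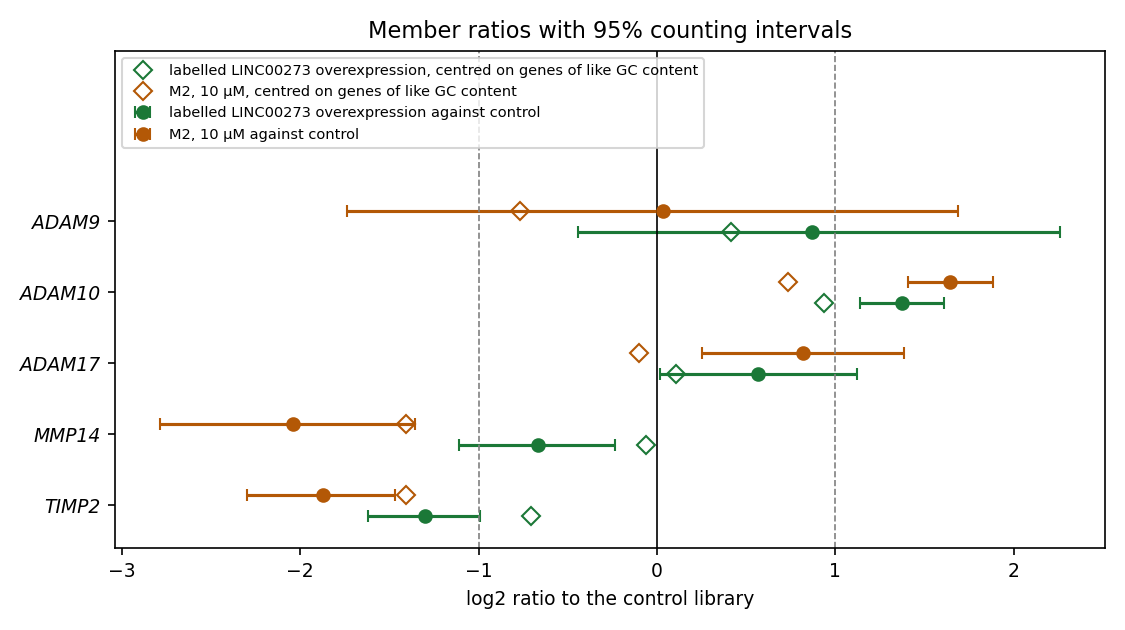
Log2 ratios to the control library (horizontal axis) of the members with at least 10 reads in every library, with filled points for TMM-scaled ratios, bars for 95% exact binomial intervals of the read split, and open diamonds for the same values after GC centring. Dashed lines mark 2-fold. TIMP2 and MMP14 in the M2 library stay below −1 with centring, at −1.41 each, while ADAM10 moves from 1.37 to 0.93 and from 1.64 to 0.73.

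Ratios to the control were related to base composition and to transcript length over the whole tables. Over genes with at least 100 reads the rank correlation of the log2 ratio with GC content was −0.60 in the LINC00273-labelled library and −0.69 in the M2 library. Median log2 ratios ran from 0.45 in the fifth of genes lowest in GC to −0.62 in the fifth highest in the first comparison, and from 0.91 to −0.67 in the second. With log2 transcript length the rank correlation was 0.43 in the first comparison and 0.38 in the second. Centred on genes of like length, ADAM10 stood at 1.01 and 0.91 and ADAM17 at 0.35 and 0.30. TIMP2 stood at −0.99 and −1.75 and MMP14 at −0.43 and −1.96. Genes share libraries and depth here and are not independent replicates. ADAM10 and ADAM17, with log2 ratios above 0, lay in the GC-poor part, and MMP14 and TIMP2, with ratios below 0, in the GC-rich part. The part of base composition or length in the members' ratios was not tested beyond the centred values given above.

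**Figure D3:**
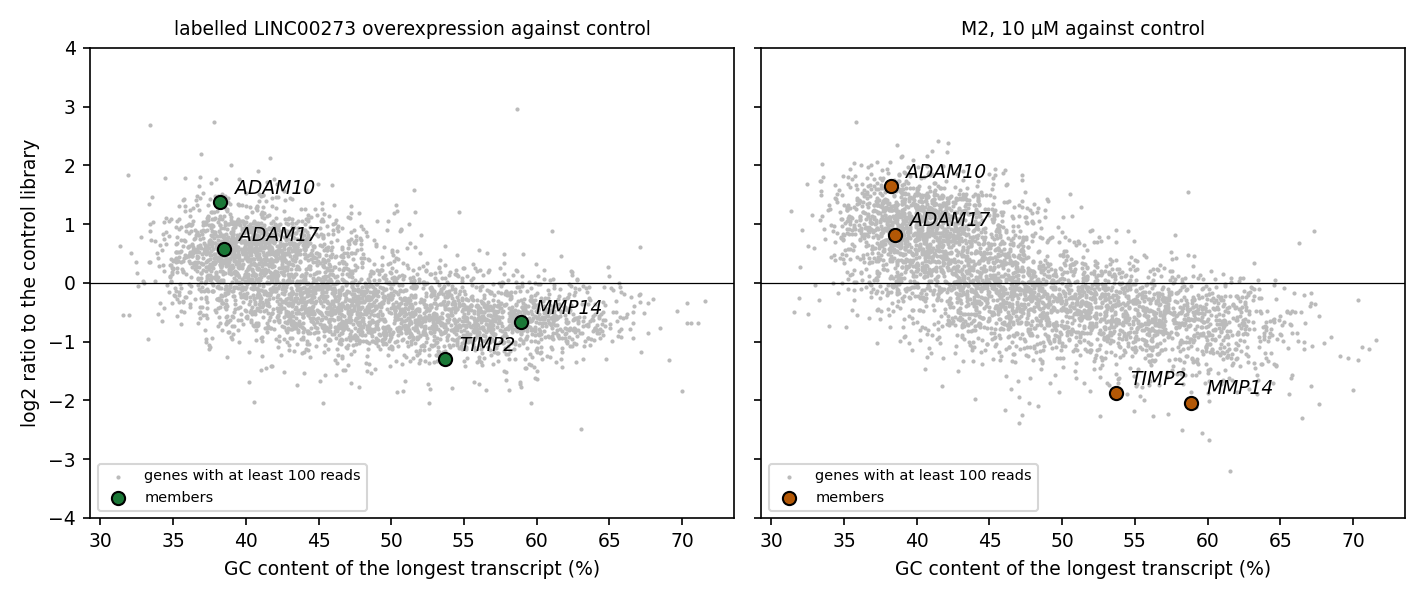
Log2 ratio to the control library (vertical axis) against the GC content of the longest transcript in percent (horizontal axis) for genes with at least 100 reads (grey) and the 4 members with that many (coloured), in each comparison. In the left panel 2 genes lie beyond the axis limit of 4, and the right panel omits none for that reason. MMP14 and TIMP2 lie at the lower edge of genes of like GC content in the M2 panel, whereas ADAM17 lies in the middle of them in both panels.

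Ratios between members within a library do not depend on library scaling. The control had 2.51 MMP14 reads per ADAM17 read, the LINC00273-labelled library 1.07 and the M2 library 0.347. The change against the control was a log2 of −1.23 (−1.93 to −0.50) and −2.86 (−3.82 to −1.96). Of the 6 pairs, MMP14 per ADAM10 differed most in the M2 library, where it was 12.8-fold lower than the control (−3.68, −4.51 to −2.98), and it was 4.11-fold lower in the LINC00273-labelled library (−2.04, −2.53 to −1.54). TIMP2 reads per ADAM10 read were 1.53 in the control, 0.240 in the LINC00273-labelled library and 0.133 in the M2 library. These pairs differ in GC content. For a pair of like GC content, ADAM10 reads per ADAM17 read were 4.22 in the control, 7.38 in the LINC00273-labelled library and 7.49 in the M2 library. The ratio was higher than in the control by 1.75-fold (log2 0.81, 0.21 to 1.42) and 1.77-fold (0.83, 0.22 to 1.45). The M2 library and the LINC00273-labelled library differed in this ratio by a log2 of 0.02 (−0.55 to 0.59). ADAM10 has the longer transcript, 11431 nt against 6573 nt. For the protease and its partner inhibitor, MMP14 reads per TIMP2 read were 0.389, 0.604 and 0.347. This ratio was 1.55-fold higher in the LINC00273-labelled library (0.63, 0.09 to 1.18), and in the M2 library its change of −0.16 had an interval on both sides of 0 (−1.08 to 0.61).

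**Figure D4:**
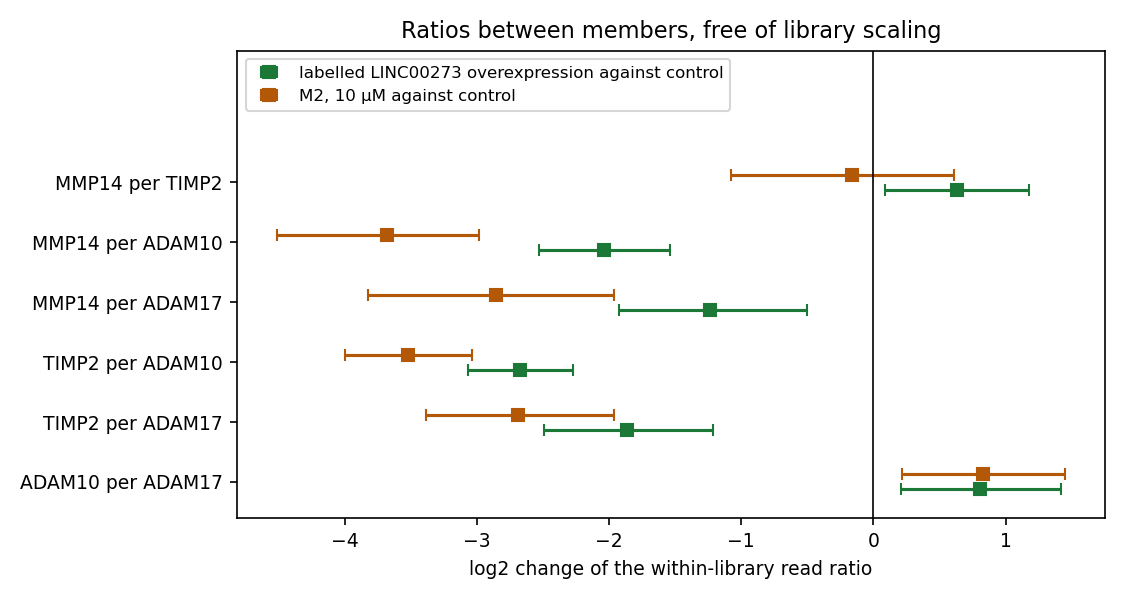
Change of the read ratio of 2 members within a library against the control (log2, horizontal axis), with squares for the value and bars for exact conditional 95% intervals, which cover counting error only. ADAM10 per ADAM17 stands near 0.8 in both comparisons, and the ratios of MMP14 or TIMP2 to ADAM10 or ADAM17 lie below 0 in both.

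The remaining 5 members were at or near the limit of detection. ADAMTS1, a secreted protease that cleaves the proteoglycans versican and aggrecan, had 27 reads in the control, 18 in the LINC00273-labelled library and 0 in the M2 library. Its log2 ratio in the LINC00273-labelled library was −0.35 (−1.75 to 0.97). Against a floor of 3 fragments (1.28 scaled RPM) in the M2 library, ADAMTS1 was at least 2.93-fold lower there than the level measured in the control, 3.75. That figure leaves out the control's own counting error (2.02 to 6.34), and the exact 95% interval of the log2 ratio, which covers both libraries, reaches up to −1.05. The exact Poisson interval of the 0 reads reaches 1.57 scaled RPM. ADAM9, another sheddase, on chromosome 8, had 18, 28 and 12 reads, with log2 ratios of 0.87 (−0.44 to 2.26) and 0.04 (−1.74 to 1.69), so no difference was detectable at this depth. The gelatinase MMP2, the enzyme that MMP14 activates, had 6, 10 and 2 reads, and its log2 ratio in the LINC00273-labelled library was 0.97 (−1.39 to 3.66). TIMP3, the matrix-bound inhibitor of ADAM17 and the ADAMTS enzymes, had 6, 4 and 6 reads. TIMP1, a secreted inhibitor of most MMPs, had 0, 4 and 2 reads. TIMP3 and TIMP1 did not exceed 3 fragments in any library, and no fold is given for them, nor for MMP2 in the M2 library. SYN1 and SYN3, whose introns hold TIMP1 and TIMP3 on the opposite strand, had at most 5 reads. Their exons do not overlap those of the inhibitors. Where strand is unknown, only reads from introns of the host gene could be mistaken for reads of the inhibitor. With a minimum of 20 reads in 1 or both libraries, 3 members (TIMP2, MMP14 and ADAMTS1) were at least 2-fold lower in the M2 library, against 16.5% of 6969 genes, and 1 was higher, against 13.9%. In the LINC00273-labelled library 1 was higher and 1 lower with that minimum, against 8.34% and 9.69% of 7289 genes.

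In the wider families, few genes had reads to compare. The 21 other MMPs summed to 104, 98 and 44 reads, 0 of them reached 100 reads, and the highest, MMP24, another membrane-type enzyme, had 24, 10 and 6. The collagenase MMP1 and the gelatinase MMP9 had at most 4 and 6 reads. Of the 18 other ADAMs, 2 reached 100 reads and both lack protease activity. ADAM23 had 201, 101 and 50 reads and was lower in the M2 library (log2 −1.39, −2.08 to −0.74), and ADAM22 stood within 2-fold in both comparisons. ADAMTS6 was the one gene of 18 other ADAMTSs with 100 reads, at 609, 519 and 252. Its log2 ratios were 0.00 and −0.65, and with GC centring it was past 2-fold in the M2 library (−1.17). Of 9 other inhibitors 0 reached 100 reads: RECK, a membrane-anchored inhibitor of MMP14 and MMP2, had 61, 78 and 32, and TIMP4 had 0 in all.

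Among 12 listed partners of ADAM10 and ADAM17, 3 had 100 reads. In the LINC00273-labelled library 1 was higher and 1 lower, against 5.18% and 6.61% of all genes with that many reads. In the M2 library 1 was also higher and 1 lower, against 17.4% and 8.88%. TSPAN5, a tetraspanin that escorts ADAM10 to the cell surface, had 386, 145 and 202 reads and was lower in the LINC00273-labelled library (−1.18, −1.59 to −0.78), also with GC centring (−1.15). RHBDF2 (iRhom2), which escorts ADAM17, had 184, 90 and 34 reads and was lower in the M2 library (−1.81, −2.65 to −1.06). The scaffold gene DLG1 was higher in both, at 1.26 and 1.16, and within 2-fold with GC centring (0.81 and 0.28). Of 9 convertases 2 had 100 reads. FURIN, the convertase that removes the inhibitory prodomain of MMP14 and the ADAMs, had 361, 220 and 89 reads and stood at −0.48 (−0.84 to −0.13) and −1.40 (−1.91 to −0.92), or −0.68 in the M2 library with GC centring, and MBTPS1 was within 2-fold. Of 28 substrates of ADAM10 and ADAM17, 6 had 100 reads in each comparison: 1 was higher and 0 lower in the LINC00273-labelled library, against 5.18% and 6.61% of all genes with that many reads, and 2 were higher and 1 lower in the M2 library, against 17.4% and 8.88%. CDH2 (N-cadherin), cut by ADAM10, was higher in both (1.68 and 1.85), the receptor MET was higher in the M2 library (1.47) and the receptor AXL lower there (−1.62, −2.50 to −0.83). APP stood at −0.18 and −0.23. With GC centring CDH2 stayed past 2-fold in both (1.76 and 1.67) and AXL in the M2 library (−1.12), while MET stood at 0.92.

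Some genes that act with MMP14 were past 2-fold, in either direction. Of the 23 MMP14 partners and genes of invadopodia, the protrusions at which MMP14 is concentrated, 15 had 100 reads in the first comparison, with 1 higher (ITGAV) and 2 lower (CAV1 and RAB8A), against 5.18% and 6.61% of all genes with that many reads. In the second 14 had 100 reads, with 1 higher (VPS35) and 1 lower (SRC), against 17.4% and 8.88%. Their median log2 ratios were −0.37 and −0.14, against −0.21 and −0.02 over all genes. CAV1, the coat protein of caveolae, had 725, 208 and 288 reads (−1.57 and −0.71). With GC centring CAV1 was the one gene of this list past 2-fold in the first comparison (−1.27), and 0 were in the second. Of 12 genes of the plasminogen system, ANXA2, a plasminogen receptor subunit, was the one with 100 reads, with 968, 285 and 159, and was lower in both libraries (−1.53, −1.81 to −1.26 and −1.98, −2.35 to −1.64). Reads of ANXA2 could be shared with its pseudogenes. Of 11 cathepsins 0 reached 100 reads. Among 27 matrix substrates 5 had 100 reads. In the LINC00273-labelled library 1 was higher and 1 lower, against 5.18% and 6.61% of all genes with that many reads. In the M2 library 0 were higher and 2 lower, against 17.4% and 8.88%. The laminin genes LAMB1 (−0.23 and 0.15) and LAMC1 (−0.24 and 0.07) were within 2-fold in both. SPARC was lower in the M2 library (−2.25), THBS1 lower in both (−1.12 and −1.19) but within 2-fold in the LINC00273-labelled library with GC centring (−0.97), and FN1, a substrate of MMP14, was higher in the LINC00273-labelled library (1.45, 1.15 to 1.76) and stood at −0.02 in the M2 library. These lists were chosen with earlier results of the same data known, and their counts are descriptions.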

How the data were processed

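RNA of 3 libraries of MDA-MB-231 tumorspheres was analysed, 1 per group. The submitters' processing notes name featureCounts 1.5.2, Bowtie2 2.2.4, DESeq2, Trimmomatic and STAR, on hg19. For the role of each tool, the annotation and the strand setting, the sources used here state nothing. The values deposited by the authors are a signal per gene: reads over a size factor that is fixed within each library. Division by the step between values gave whole reads for 100% of values within 0.01 reads. The planned design had assumed counts, and these reads took their place. Among genes with fewer than 20 reads 80.5% to 85.8% had an even number, so intervals and floors (3 fragments) used reads divided by 2. The ratio and log2 ratio columns of the authors' deposited tables of changed genes were read for membership and limits only.

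TMM scaling (edgeR 4.0.16 in R 4.3.3) gave effective library sizes of 7208511, 6139145 and 4686051. With 1 library per group no count test could be run, and calls were made by size: a 2-fold ratio or more, where one library or both had 100 reads or more. Intervals are 95% exact, Poisson for levels and Clopper-Pearson for ratios (scipy 1.17.1). They cover counting error only and take each fragment as independent. PCR copies are not independent molecules, so the intervals may be too narrow even for counting error. GC content and length came from the longest GENCODE 29 transcript (GRCh38), matched by Ensembl ID for 52337 of 57773 genes, and coordinates are GRCh38. Centring subtracted the running median of 301 genes nearest in GC content or length. The log2 ratio, its interval and the size rule were tested on simulated libraries. These were Poisson counts drawn from the control with known fold changes, given library sizes and no GC trend or PCR copies. Recovery of reads, TMM scaling and centring were not tested in this way. Members and lists were chosen with earlier results of these data known. Named genes were the 9 members, the listed genes past the size rule or with the most reads, genes overlapping a member, and the 2 protein-coding genes nearest to each member in both ratios, leaving out chromosome Y. MMP1, MMP9, TIMP4, KRT8, KRT18, EGFR, CD44, RN7SL1, RN7SK, PTPRC, LAMB1, LAMC1, MMP8, ADAMTS5 and ADAMTS12 were chosen after their values were seen. Alternatives were DESeq2 size factors (DESeq2 1.42.0), total-count and deposited scaling, protein-coding genes, other minimums (20, 500 or none) and thresholds (1.5-fold and 4-fold), a prior of 5 reads, and centring.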

Additional observations from a re-analysis of the deposited data

How the results depend on the processing

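The log2 ratios of members were recomputed under 7 alternatives each. Of 105 values, 93 stayed within the counting interval, 12 moved outside it, and 0 of the ratios past 2-fold changed sign. All 12 belonged to TIMP2, MMP14, ADAM10 and ADAM17. The intervals of MMP2, TIMP3, ADAM9 and ADAMTS1, with at most 28 reads, are so wide that values within them say little about stability. In the M2 library TIMP2 ranged from −1.88 to −1.41, MMP14 from −2.04 to −1.41 and ADAM10 from 0.73 to 1.90. In the LINC00273-labelled library TIMP2 ranged from −1.34 to −0.71 and ADAM10 from 0.93 to 1.89. The remaining moved values were those of MMP14 in the LINC00273-labelled library, −0.15 scaled to the total count and −0.06 centred on GC content, and of ADAM17 in the M2 library, −0.10 centred on GC content.

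Counts of members past the threshold in the LINC00273-labelled library were 2 higher and 0 lower with total-count scaling, 2 lower at 1.5-fold, 0 higher and 0 lower at 4-fold, 0 and 0 with GC centring, and 0 lower with length centring. In the M2 library they were 2 higher with total-count scaling and at 1.5-fold, 0 higher at 4-fold and with either centring, and 1 lower at 4-fold (MMP14) and with a minimum of 500 reads (TIMP2). Over all genes, the LINC00273-labelled library had 823 higher and 37 lower with total-count scaling, 608 and 706 with a minimum of 20 reads, 73 and 77 with 500, 2723 and 1806 with none, 652 and 1100 at 1.5-fold, 6 and 9 at 4-fold, and 131 lower with GC centring and 141 with length centring. The M2 library had 166 lower with total-count scaling, 1150 lower with a minimum of 20 reads, 298 higher and 85 lower with 500, 2250 and 2231 with none, 1135 and 899 at 1.5-fold, 16 and 19 at 4-fold, and 174 higher with GC centring and 416 with length centring. Thresholds and minimums change these counts by construction. So does library scaling, which shifts all log2 ratios of a comparison by the same amount, 0.52 and 0.26 with total-count scaling. Why the scalings differ was not tested.

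No paired analysis was possible because each group has 1 library, and for the same reason no replicate could be left out. DESeq2 size factors and the restriction to protein-coding genes left every count of members as it was. Depth limits MMP2, TIMP1, TIMP3, ADAM9 and ADAMTS1, whose intervals span several-fold ratios.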

Other observations

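Of 57773 genes, the authors' deposited tables of changed genes hold 809 for the LINC00273-labelled library and 670 for the M2 library. They hold 0 of the 9 members, which with so few of all genes in them is not a result about the members. Of the other MMPs, ADAMs and ADAMTSs they hold MMP8 and ADAMTS3 for the LINC00273-labelled library and ADAMTS5 and ADAMTS12 for M2. Each of these had fewer than 100 reads in every library. The log2 ratio nearest to 0 among lower genes in the authors' deposited table for M2 was −2.09, and the deposited values of MMP14 and TIMP2 give −1.96 and −1.80. For the LINC00273-labelled library the limits in the authors' deposited table were 2.18 and −1.87, and the deposited values give 1.45 for ADAM10 and −1.22 for TIMP2. The deposited values of ADAM10 and ADAM17 for M2 give 1.72 and 0.89, against a limit of 2.15 for higher genes in the authors' deposited table.

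By the pair of log2 ratios against the control over 3 libraries, the genes nearest to MMP14 among 3564 protein-coding genes were NUMBL (124, 70 and 20 reads, at a distance of 0.078) and UNC13A (128, 68 and 22). Nearest to TIMP2 were CARS (121, 40 and 22) and RRP9 (102, 36 and 20). Nearest to ADAM10 were FAM102B (82, 188 and 163) and SREK1 (465, 978 and 938). Nearest to ADAM17 were SUCLA2 (408, 514 and 469) and TMEM33 (315, 395 and 362), at distances of 0.0056 and 0.010. The likeness rests on 2 ratios that share the control library.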
